A study of Mus musculus with 24 samples.

Results

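The circadian clock of mammalian cells is a transcriptional loop. Arntl (BMAL1) pairs with Clock to switch on genes that carry E-box sequences, among them the Period (Per1, Per2, Per3) and Cryptochrome (Cry1) genes, whose proteins then repress the Arntl and Clock pair. The nuclear receptors Nr1d1 and Nr1d2 (REV-ERB alpha and beta) repress Arntl, Ciart is a further repressor of the Arntl and Clock pair, and Dbp, a transcription factor that binds D-box sequences, is an output that the loop drives strongly. In tissues sampled around the day, Arntl peaks at about the opposite phase to Dbp, Nr1d1 and the Period genes, and clock genes of the forebrain are known to respond to feeding, stress hormones and neuronal activity.

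These 10 genes, core members and outputs of the loop, were selected by symbol, with earlier results of these data known. All 10 were found among the 52636 annotated genes, and all 10 passed the filter on low counts in the fit of 24 animals. The animals were C57BL/6 mice (C57BL/6J per the methods of the study) aged 50 days, and the nucleus accumbens (NAc), a ventral striatal region of reward processing, was punched from both hemispheres. Control (Con) litters were left with their dams, and MSUS litters underwent maternal separation with unpredictable maternal stress, which was applied daily over postnatal days 1 to 14. The labels give 2 h of separation a day and the methods of the study give 3 h. The design had 6 animals in each of 4 groups (Con and MSUS of either sex), cages after weaning held animals of 1 sex and 1 group, so cage and group cannot be told apart, and no labelled treatment other than MSUS set the groups apart. Per the methods of the study, each female group held high- and low-estrogenic animals in equal number. Animals are numbered 1 to 6 within a group as in the labels. The time of day at which tissue was taken is not given in the sources used here, nor is the litter of each animal, so no clock gene can be set against either, and p-values measure the spread between these animals.

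Each animal's library held 39923666 to 70575745 sense-strand read pairs assigned to genes. The clock genes stood at 282 counts (Ciart in Con female 3) to 9314 counts (Clock in MSUS male 2). The share of read pairs that fell in no gene ran from 31.0% to 34.8% in Con females and from 36.3% to 43.9% in MSUS females, ranges that did not overlap, so this share and the female MSUS comparison cannot be told apart. The share ran from 34.7% to 40.6% in Con males, which overlapped Con females only narrowly, and from 32.2% to 44.7% in MSUS males. All 9 listed markers of medium spiny neurons, the principal striatal cell type, were detected in every animal. Their summed level ran from 1840 to 4739 CPM (counts scaled to library size) in Con females, 3184 to 4290 CPM in MSUS females, 2750 to 4535 CPM in Con males and 2193 to 4362 CPM in MSUS males. All 7 markers of cortical excitatory neurons were also detected in every animal, with sums that ran from 139 to 1485 CPM in Con females, 9.55 to 603 CPM in MSUS females, 39.6 to 1002 CPM in Con males and 43.3 to 1478 CPM in MSUS males. In bulk tissue, fewer cells of a type and less RNA per cell cannot be told apart.

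Stretches of promoter that hold the letters recognised by clock proteins are shown first, since the windows searched differ in which of these they hold. Promoters (250 bases before to 50 after each transcription start, RefSeq, GRCm38.p6) were found for 9 of the 10 genes; Per2 was not matched. The E-box CACGTG was held by 3 of the 9 (Per1, Ciart and Cry1) against 8.09% of 27025 genes. Each stretch of 30 bases is written 5′ to 3′ on the gene's own strand, with the motif in capitals and its first base counted from the transcription start, which is 0.
Per1 E-box, chr11:69098771-69098800 (plus strand), motif at -166 from the start: agcacccaagtcCACGTGcagggatgtgtg
Ciart E-box, chr3:95882327-95882356 (minus strand), motif at -116 from the start: tgcatctagagtCACGTGttgccggtaagc
Ciart E-box, chr3:95882269-95882298 (minus strand), motif at -58 from the start: cgcagggggaggCACGTGcagaaccgcacg
Ciart E-box, chr3:95882255-95882284 (minus strand), motif at -44 from the start: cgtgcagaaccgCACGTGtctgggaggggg
Cry1 E-box, chr10:85185097-85185126 (minus strand), motif at -60 from the start: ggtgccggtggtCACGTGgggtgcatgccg

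Ciart held 3 E-boxes within 1 window, Cry1 held 1, and Per1 held 1 in 1 of its 2 windows. The Per1 start counted from lies inside the annotated gene, which begins at chr11:69095217. The D-box, searched as TTATGTAA or TTACGTAA, was found in the Per3 promoter, where it occurred as 2 copies, and in 1.23% of all genes.
Per3 D-box, chr4:151044852-151044881 (minus strand), motif at -205 from the start: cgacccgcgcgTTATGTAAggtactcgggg
Per3 D-box, chr4:151044805-151044834 (minus strand), motif at -158 from the start: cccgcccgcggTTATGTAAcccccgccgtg

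The response element for ROR and REV-ERB receptors, searched as TAGGTCA, was found in Arntl, in 1 of its 2 windows, and in 2.97% of all genes.
Arntl RORE, chr7:113207530-113207559 (plus strand), motif at 30 from the start: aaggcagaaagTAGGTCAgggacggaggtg

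The cAMP response element TGACGTCA was found in none of the 9, against 2.03% of all genes. All motifs were searched on both strands, did not overlap one another in the stretches shown, and are matches of letters only. Sites outside these windows or with other letters were not searched, so a gene without a match here may still carry such a site.

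Per length, the clock genes differed in level. Dbp was the most abundant at 23.9 ± 3.71 RPKM (CPM per kilobase of exon; mean ± SD over 24 animals). It was followed by Nr1d1 at 21.3 ± 1.48 RPKM, Per1 at 20.9 ± 2.72 RPKM and Nr1d2 at 18.6 ± 1.62 RPKM. Clock stood at 10.3 ± 0.735 RPKM, Per2 at 9.21 ± 1.32 RPKM and Cry1 at 9.04 ± 1.03 RPKM. Per3 reached 6.66 ± 0.776 RPKM and Arntl 6.11 ± 0.581 RPKM, and Ciart was lowest at 3.38 ± 0.513 RPKM. The steps from Nr1d2 to Clock, Cry1 to Per3 and Arntl to Ciart held in 24 of 24 animals. The other neighbours were not in the same order in every animal: Dbp exceeded Nr1d1 in 19 of 24 animals, whereas Nr1d1 exceeded Per1 in 12 of 24. These are levels over all annotated exons, and Dbp is the least certain of them, since 18.01% of its exon bases overlap Sphk2 on the opposite strand and its sense count was 168% of the count made without regard to strand. Nr1d1 shares 8.55% of its exon bases with Thra on the opposite strand. The sense count of Ciart was 82.2% of its count without strand.

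Animals of 1 group differed from each other most for Dbp, an output of the loop, and least for Nr1d1. The SD of log2 CPM within groups was 0.266 for Dbp, 0.239 for Ciart and 0.181 for Per2. It was 0.169 for Cry1, 0.163 for Per3 and 0.134 for Per1. It was 0.123 for Arntl, 0.123 for Nr1d2, 0.109 for Clock and 0.096 for Nr1d1. The median over all 21500 genes tested was 0.190, and only Dbp and Ciart varied more than the median gene. That median takes in genes of every level, so it does not set the clock genes against genes of like level. Between its lowest and highest animal, Dbp differed 2.16-fold and Nr1d1 1.23-fold.

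**Figure D1:**
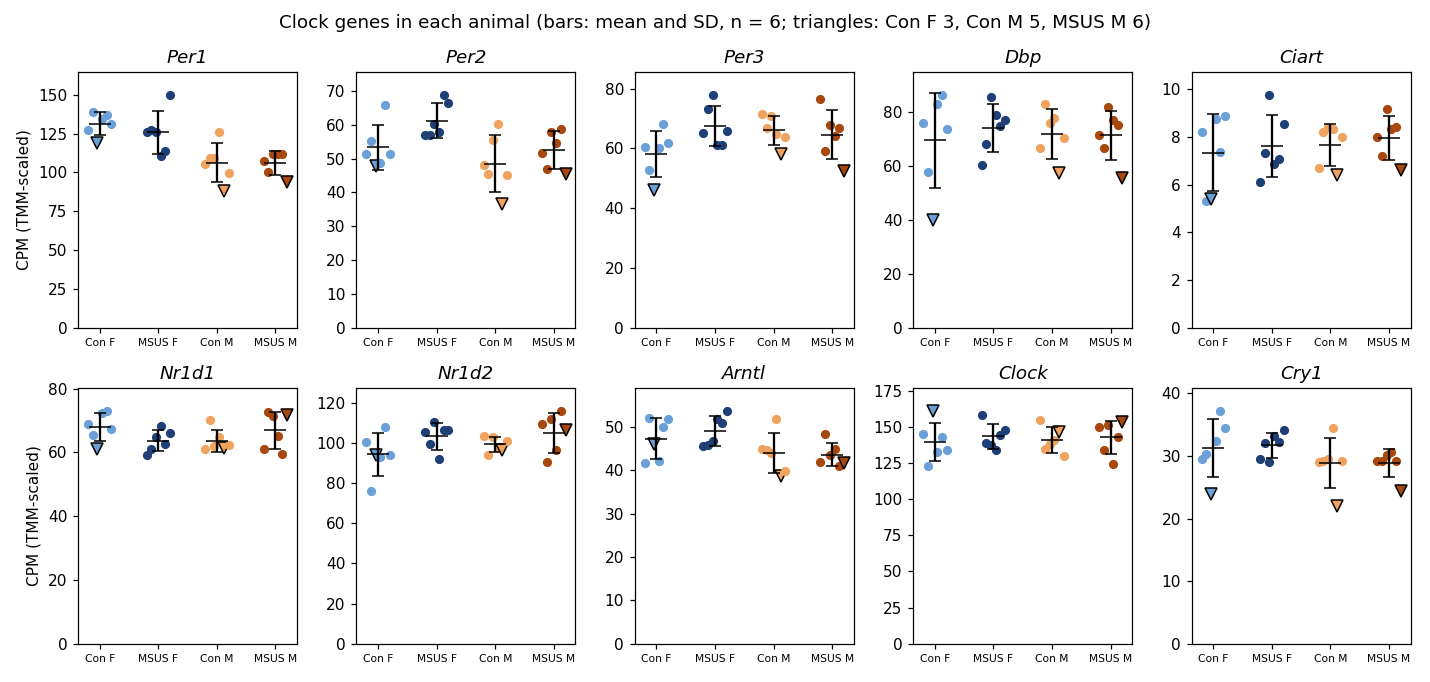
CPM of the 10 clock genes in each of 24 animals, by group (n = 6), each panel starting at 0, with bars for the mean and SD; triangles mark Con female 3, Con male 5 and MSUS male 6. Dbp ran from 39.8 CPM in Con female 3 to 86.1 CPM in Con female 5, and the triangles are the lowest points of their groups for Per1, Per2, Per3, Dbp and Cry1 but not for Clock.

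The first question was whether MSUS altered clock genes in the NAc of either sex. In females, 25.1% of all 20571 genes tested passed an adjusted p of 0.10, 13.1% being higher and 11.9% lower in MSUS females. Of the 10 clock genes, 1 passed, Per2, which rose. Per2 had 47.8, 51.4 and 65.9 CPM in Con females (lowest, median and highest) and 57.0, 59.1 and 68.8 CPM in MSUS females. All 6 MSUS females lay above the Con female median, although the groups overlapped. The log2 fold change was 0.20 (SE 0.078, adjusted p = 0.092) by edgeR's quasi-likelihood test, a 1.15-fold difference in mean CPM. That 1 in 10 lay below the share of all genes that passed. In none of the 4 group comparisons were the groups apart for any clock gene, whereas 7.29%, 0.0435%, 2.04% and 0.642% of all genes did not overlap in, respectively, the MSUS comparison of females, that of males, the sex comparison of Con animals and that of MSUS animals.

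Per3, another Period gene, had 46.1, 60.3 and 68.1 CPM in Con females and 61.1, 65.5 and 77.8 CPM in MSUS females. All 6 MSUS females again lay above the Con median, with a log2 fold change of 0.22 (SE 0.089, adjusted p = 0.114), which missed the threshold. Per1, the Period gene that responds fastest to stimulation, had 119, 133 and 139 CPM in Con females and 111, 126 and 149.9 CPM in MSUS females. The log2 fold change was -0.059 (SE 0.066, adjusted p = 0.561), and 1 of 6 MSUS females lay above the Con median, while the MSUS female range took in the whole Con range.

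The nuclear receptors had fold changes of opposite sign, and neither passed. Nr1d1 had 61.2, 68.2 and 72.9 CPM in Con females and 59.3, 63.7 and 68.3 CPM in MSUS females, with a log2 fold change of -0.091 (SE 0.048, adjusted p = 0.207). Nr1d2 had 76.0, 93.9 and 108 CPM in Con females and 91.8, 106 and 111 CPM in MSUS females, with a log2 fold change of 0.14 (SE 0.07, adjusted p = 0.189). For both genes 5 of 6 MSUS females lay on the side of the Con median that the fold change gives, and the groups overlapped.

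The activators and the remaining repressors overlapped between the female groups. Arntl had 41.7, 48.0 and 52.1 CPM in Con females and 45.7, 48.8 and 53.6 CPM in MSUS females (log2 fold change 0.058, SE 0.066, adjusted p = 0.566). Clock had 123, 139 and 161 CPM in Con females and 134, 142 and 158 CPM in MSUS females (log2 fold change 0.043, SE 0.06, adjusted p = 0.648). Both subunits of the activating pair thus differed by less than the spread between animals. Cry1 had 23.9, 31.3 and 37.1 CPM in Con females and 29.0, 32.2 and 34.1 CPM in MSUS females (log2 fold change 0.023, SE 0.087, adjusted p = 0.876). Ciart had 5.32, 7.80 and 8.89 CPM in Con females and 6.12, 7.21 and 9.76 CPM in MSUS females (log2 fold change 0.059, SE 0.15, adjusted p = 0.82). Dbp had 39.8, 74.8 and 86.1 CPM in Con females and 60.1, 75.8 and 85.6 CPM in MSUS females (log2 fold change 0.098, SE 0.17, adjusted p = 0.711). For Dbp, 3 of 6 MSUS females lay above and 3 below the Con median. The 95% interval of its log2 difference was wide, from -0.23 to 0.42.

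The Per2 call was slight. It was lost without Con female 1, 2, 4 or 6 and without MSUS female 2, 3, 5 or 6 (0 calls each), and held without Con female 3, the animal with the lowest Dbp. It was also lost with no filter on low counts (adjusted p = 0.146), with counts made without regard to strand (0.117), with all 24 animals in 1 fit (0.179) and with the share of read pairs in no gene as a covariate (0.76). It was lost, at an adjusted p of 0.51, with the cortical marker score in the fit, when the log2 fold change of Per2 fell to 0.12 and Nr1d1 was called instead at -0.17. The summed cortical markers were lower in MSUS females, with a median log2 fold change of -1.82 over the 7 markers, of which 2 passed. Of the oligodendrocyte markers 4 of 6 passed as lower, and of the astrocyte markers 2 of 6. Log2 fold changes ran from -0.30 to -0.099 over the oligodendrocyte markers and from -0.41 to 0.022 over the astrocyte markers. Summed oligodendrocyte markers ran from 2342 to 3640 CPM in Con females and 2198 to 2663 CPM in MSUS females, and summed astrocyte markers from 5534 to 6136 CPM and 5169 to 5791 CPM. With the medium spiny neuron score in the fit, 3 clock genes passed, namely Per2 at 0.18, Per3 at 0.18 and Nr1d1 at -0.11. That fit also raised the calls over all 20571 genes, from 5156 to 6685. The part of tissue makeup in the Per2 difference was not tested.

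In males, none of 20691 genes passed (0% by edgeR and by DESeq2; 191 at an unadjusted p under 0.05 in edgeR), and none of the 10 clock genes passed by edgeR or DESeq2 or had an unadjusted p under 0.05. Their log2 fold changes ran from -0.033 for Per3 to 0.11 for Per2, with a median of 0.0080. Per2 had 36.5, 46.8 and 60.4 CPM in Con males and 45.4, 53.1 and 58.9 CPM in MSUS males, with a log2 fold change of 0.11 (SE 0.11, adjusted p = 1.00). Per3 had 58.1, 65.8 and 71.6 CPM in Con males and 52.5, 65.5 and 76.6 CPM in MSUS males (log2 fold change -0.033, SE 0.08, adjusted p = 1.00). The male groups overlapped for all 10 clock genes. Dbp had 57.2, 73.1 and 83.0 CPM in Con males and 55.6, 73.3 and 81.7 CPM in MSUS males, and the 95% interval of its log2 difference was -0.21 to 0.18. Cry1 had 22.03, 29.2 and 34.5 CPM in Con males and 24.5, 29.3 and 30.6 CPM in MSUS males, where the lowest animals, Con male 5 and MSUS male 6, stood below all others of their groups.

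Per1 had 88.0, 107 and 126 CPM in Con males and 93.7, 109.5 and 112 CPM in MSUS males, and Ciart had 6.41, 8.10 and 8.42 CPM and 6.60, 8.16 and 9.19 CPM. Nr1d1 had 61.2, 62.1 and 70.3 CPM in Con males and 59.7, 68.4 and 72.8 CPM in MSUS males (log2 fold change 0.074, SE 0.058, adjusted p = 1.00). Nr1d2 had 94.0, 99.3 and 104 CPM in Con males and 90.3, 108 and 116 CPM in MSUS males (log2 fold change 0.08, SE 0.059, adjusted p = 1.00). Both receptors had 4 of 6 MSUS males above the Con male median. The activators overlapped over most of their range: Arntl had 38.7, 44.3 and 51.8 CPM in Con males and 41.0, 42.8 and 48.3 CPM in MSUS males, and Clock had 129.8, 139 and 155 CPM and 125, 146 and 154 CPM.

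The effect of MSUS was not shown to differ between the sexes for any clock gene. The interaction of group and sex passed for 0 of 21500 genes by edgeR (0%; 4031 at an unadjusted p under 0.05) and for 467 by DESeq2. Among the 10 clock genes none passed by either tool and 1 had an unadjusted p under 0.05 in edgeR. That gene was Nr1d1, with a difference in log2 fold change, female minus male, of -0.17 (SE 0.077, adjusted p = 0.248). Per3 had the largest difference, 0.24 (SE 0.12, adjusted p = 0.29), and its interval reached from -0.0017 to 0.49.

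The second question was whether females and males differed. Among controls, 2.64% of 20641 genes passed (0.799% higher in females), and 1 of the 10 clock genes did, Per1, which was higher in Con females. Per1 had 119, 133 and 139 CPM in Con females and 88.0, 107 and 126 CPM in Con males, a log2 fold change of 0.32 (SE 0.073, adjusted p = 0.076). The groups overlapped by Con male 4 at 126 CPM, and all 6 Con females lay above the Con male median. Per1 is itself induced by neuronal activity, and 9 of the 11 listed immediate early genes, which mark recent activity, were also higher in Con females. Fos was higher by a log2 fold change of 1.75 (SE 0.33, edgeR adjusted p = 0.058) and Arc by 1.24 (SE 0.22, adjusted p = 0.056). The summed immediate early genes ran from 479 to 791 CPM in Con females and from 285 to 452 CPM in Con males without overlap. The part of recent activity in the Per1 difference was not tested.

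The Per1 call was lost without Con female 1, 2, 4 or 5 and without Con male 1, 3 or 6, and when all 24 animals shared 1 fit (adjusted p = 0.104). It was also lost with the cortical marker score in the fit (adjusted p = 0.101) although the log2 fold change was then 0.37, and with the share of read pairs in no gene as a covariate (adjusted p = 1.00, log2 fold change 0.50). That share ran from 31.0% to 34.8% in Con females and from 34.7% to 40.6% in Con males, with a narrow overlap. No other clock gene passed between Con females and Con males. Per3 was lower in Con females at -0.17 (SE 0.087, adjusted p = 0.325), and Nr1d1 was higher at 0.11 (SE 0.053, adjusted p = 0.314), both short of the threshold.

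Among MSUS animals, 0.135% of 20714 genes passed and none of the 10 clock genes did by edgeR or DESeq2, of which 4 had an unadjusted p under 0.05, as did 1511 of all genes tested. These were Per1, Per2, Arntl and Cry1, all with higher values in MSUS females. Per1 had 111, 126 and 149.9 CPM in MSUS females and 93.7, 109.5 and 112 CPM in MSUS males, with a log2 fold change of 0.24 (SE 0.071, adjusted p = 0.379). Per2 differed by 0.22 (SE 0.073, adjusted p = 0.53). Arntl, the activator, had 45.7, 48.8 and 53.6 CPM in MSUS females and 41.0, 42.8 and 48.3 CPM in MSUS males, with a log2 fold change of 0.17 (SE 0.053, adjusted p = 0.475). All 6 MSUS females lay above the MSUS male median for Per1, Per2 and Arntl, yet each pair of groups overlapped. Both sex comparisons and both MSUS comparisons share animals, so their values are not independent of each other.

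**Figure D2:**
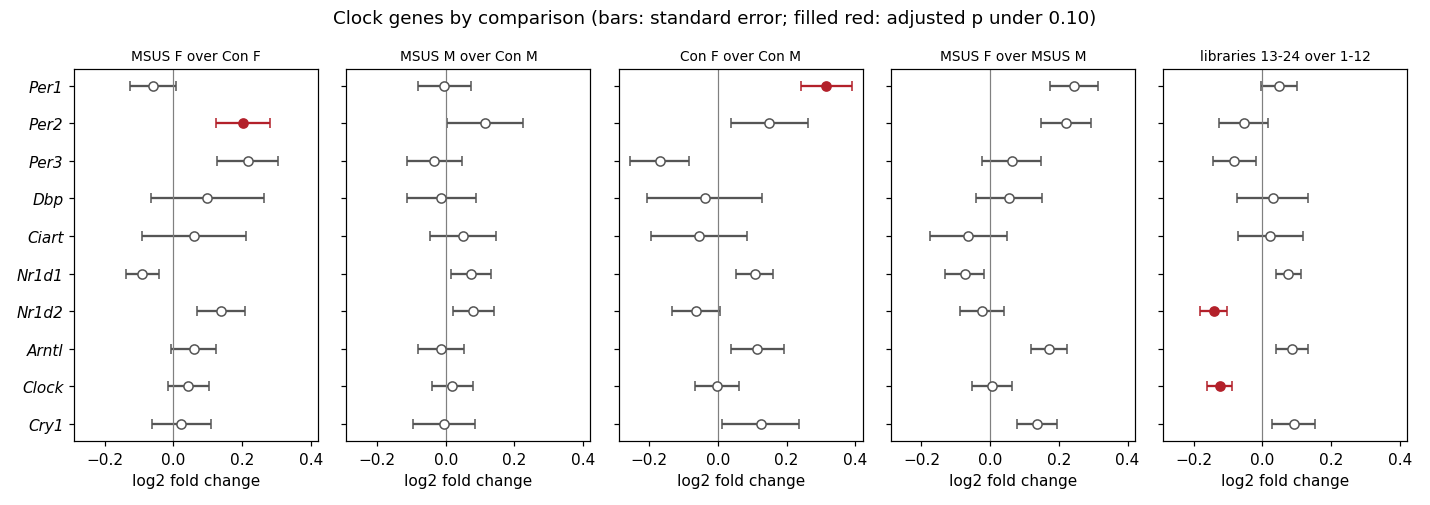
Log2 fold change of each clock gene (points, first-named group over second) with its standard error (bars) in 4 group comparisons of 6 against 6 animals and between library sets of 12 animals each, on 1 common axis; red filled points had an adjusted p under 0.10 by edgeR. Per2 is filled in females, Per1 between Con females and Con males, and Clock and Nr1d2 between library sets, and no point lies beyond 0.32.

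Of 19 further clock genes, 3 passed in MSUS against Con females against 25.1% of all genes, and none passed in the other 3 group comparisons. Bhlhe41 (DEC2), a repressor of E-box genes, rose by a log2 fold change of 0.29 (SE 0.087, edgeR adjusted p = 0.039), from 65.8 ± 9.02 to 80.5 ± 5.90 CPM (mean ± SD, n = 6). Cry2, the second Cryptochrome, fell by 0.079 on the log2 scale (adjusted p = 0.095). The 19 genes had a median log2 fold change of -0.055 in that comparison, against -0.0027 over all genes tested. None of the 3 listed clock outputs, Usp2, Wee1 and Nampt, passed in any comparison.

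The libraries carried numbers from 1 to 24, and 1 to 12 and 13 to 24 each held 3 animals of every group. What separates these library sets is not given in the sources used here. Between them 2.34% of 21500 genes passed (1.8% lower in libraries 13 to 24), as did 2 of the 10 clock genes, both lower in libraries 13 to 24. Clock ran from 137 to 161 CPM in libraries 1 to 12 (median 146) and from 123 to 154 CPM in libraries 13 to 24 (median 134), a log2 fold change of -0.12 (SE 0.036, adjusted p = 0.096). Nr1d2 ran from 93.8 to 116 CPM (median 106) and from 76.0 to 107 CPM (median 95.2), a log2 fold change of -0.14 (SE 0.038, adjusted p = 0.076). Both genes had a lower mean in libraries 13 to 24 within all 4 groups. Both calls were lost without Con female 1 or 2, MSUS female 1 or 4, Con male 1 or 2, or any MSUS male from 1 to 5. Only Nr1d2 passed without Con female 3, 4 or 6, MSUS female 5 or Con male 6, and only Clock without Con male 3. Both were also lost with the share of read pairs that fell in no gene in the fit (adjusted p of 0.141 for Clock and 0.155 for Nr1d2).

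The third question was whether the clock genes varied together between animals. With group means removed, 33 of the 45 pairs had a Pearson r above 0 and the median r was 0.343. Of these pairs 17 passed at an adjusted p under 0.05 (100000 two-sided permutations within groups, adjusted over the 45 pairs), all with r above 0. By Spearman's rho 2 passed, Per1 with Per2 and Dbp with Ciart; the other 15 had rho of 0.300 to 0.612 and adjusted p of 0.051 to 0.28. Dbp and Cry1 entered 6 of the 17 pairs each, Per1 entered 5, and Per2, Per3 and Ciart entered 4 each.

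The strongest pair joined Dbp and Ciart, 2 targets of the activating pair, with r = 0.83 and rho = 0.83 (adjusted p of 9e-04 for each by permutation). It held within every group (r from 0.79 to 0.97, n = 6 each), in libraries 1 to 12 (0.85) and 13 to 24 (0.78), and at 0.81 without the 2 animals farthest from the median of Dbp. Dbp also rose and fell with Cry1 (r = 0.76, rho = 0.61, adjusted permutation p of 0.0048 and 0.051) and with Per3 (r = 0.72, rho = 0.58, adjusted p of 0.0048 and 0.051). Without the 2 farthest animals these became 0.60 and 0.53. The repressors Per1 and Per2 had r = 0.71 and rho = 0.68 (adjusted permutation p of 0.0048 and 0.024), and Per2 and Cry1 had r = 0.74 and rho = 0.59 (adjusted p of 0.0048 and 0.051). Of the 17 pairs, 12 had the same sign in all 4 groups and 16 in both library sets. The exception was Nr1d2 with Clock, which had r = 0.58 over all animals (rho = 0.56, adjusted permutation p of 0.046 and 0.057) but -0.59 within libraries 1 to 12 and 0.68 within libraries 13 to 24.

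Clock, the partner of Arntl, had r below 0 with 8 of the other 9 genes, from -0.44 with Dbp to -0.087 with Per2. The value with Dbp did not pass (rho = -0.34, adjusted permutation p of 0.16 and 0.22) and became -0.13 without the 2 animals farthest from the median of Dbp. Arntl, which peaks opposite to Dbp in tissues sampled around the day, had r = 0.16 with Dbp (rho = 0.14, adjusted permutation p of 0.70 and 0.68). It rose and fell with the repressors Per2 (r = 0.54, rho = 0.46, adjusted p of 0.049 and 0.099) and Cry1 (r = 0.57, rho = 0.55, adjusted permutation p of 0.046 and 0.067). Without Con males 4 and 5, the 2 animals farthest from the median of Per2 and also of Arntl, these became 0.31 and 0.39, and with Per2 it had r = -0.31 within MSUS males. With Nr1d2 it had r = -0.36 and with Nr1d1 0.28, neither past the threshold.

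The number of pairs that passed leaned on single animals. It was 7 without Con male 5, 8 without MSUS male 4 or 6, 9 without Con female 3 or MSUS male 3, and 10 without MSUS female 5 or Con male 4. It was 11 without Con female 5, Con male 1, 2 or 3, MSUS male 1, or MSUS female 4 or 6, and above 11 without any of the other animals. Con female 3 was the lowest of its group for 6 of the 10 clock genes, Con male 5 for 7 and MSUS male 6 for 6. Dbp stood at 39.8 CPM in Con female 3 against 57.6 to 86.1 CPM in the other Con females, at 57.2 CPM in Con male 5 and at 55.6 CPM in MSUS male 6. At the other end, Con female 5 was the highest of its group for 6 clock genes. Con female 3, Con male 5 and MSUS male 6 each also had the lowest medium spiny neuron score and the highest cortical score of their group. The score is the mean log2 CPM of a marker list, and it departed from the group mean by -0.93, -0.39 and -0.62 for medium spiny neurons and by 1.51, 2.29 and 2.41 for cortical neurons in these animals, in that order. Without these 3 animals, chosen after their values were seen, 3 pairs passed, namely Dbp with Ciart (r = 0.79), Nr1d2 with Clock (0.69) and Per3 with Nr1d2 (0.68), and the median r fell to 0.220. With all 24 animals kept, Nr1d2 with Clock had r = -0.59 within libraries 1 to 12.

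Each clock gene was set against 8 measures of the animal, as 80 relations adjusted together by permutation. Dbp followed the medium spiny neuron score most closely (r = 0.91, rho = 0.84, adjusted permutation p = 8e-04 for each, from the smallest p that 100000 permutations can give). It held in every group (r from 0.81 to 0.98, n = 6 each), in both library sets (0.96 and 0.79) and at 0.82 without the 2 farthest animals. Dbp had r from 0.73 to 0.94 with each of the 9 markers taken singly and from -0.67 to -0.59 with each of the 7 cortical markers. Cry1 (r = 0.83), Per3 (0.74), Ciart (0.68), Per1 (0.56) and Per2 (0.56) passed with the medium spiny neuron score too. Their rho ran from 0.44 for Per1 to 0.65 for Ciart, with an adjusted permutation p of 0.019 to 0.025 for Ciart, Cry1 and Per3 and of 0.11 for Per1 and Per2, and r ran from 0.47 to 0.72 without the 2 farthest animals. Arntl (r = 0.36), Nr1d1 (0.44), Nr1d2 (0.16) and Clock (-0.36) did not pass by r, although Nr1d1 did by rho (0.55, adjusted permutation p = 0.043).

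**Figure D3:**
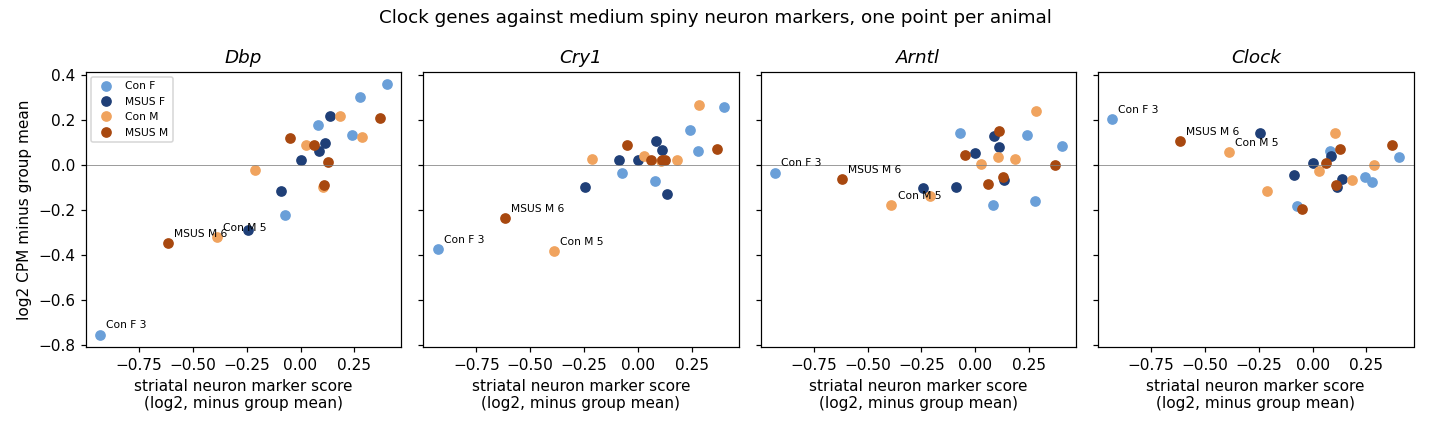
Log2 CPM of Dbp, Cry1, Arntl and Clock (vertical) against the mean log2 CPM of 9 medium spiny neuron markers (horizontal), each with the group mean removed, 1 point per animal (24 animals), coloured by group. Dbp (r = 0.91) and Cry1 (r = 0.83) rise along the score with Con female 3 at the lower left, while Arntl (r = 0.36) and Clock (r = -0.36) show no such line.

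Against the cortical score, Dbp (r = -0.66), Ciart (-0.62), Cry1 (-0.62) and Per2 (-0.54) passed below 0 (rho from -0.65 to -0.55, adjusted permutation p of 0.012 to 0.043), while Clock had 0.49 without passing. Without the 2 farthest animals these 4 became -0.58 to -0.49. Against the oligodendrocyte score Cry1, Per3, Ciart and Per1 passed below 0 (r from -0.64 to -0.52), of which Per3 passed by rho (-0.58, adjusted permutation p = 0.026). Per2 passed by rho (-0.69, adjusted permutation p = 0.012) and not by r (-0.54, adjusted p = 0.060). Dbp alone passed against the astrocyte score (r = -0.60), with r = 0.22 among MSUS males. Taken singly, the 6 astrocyte markers had r with Dbp from -0.70 for Gfap to 0.16 for Slc1a3 (median -0.26, 5 below 0). The glucocorticoid-induced genes, which respond to stress hormone, gave r = -0.79 with Ciart, -0.71 with Per3 and -0.70 with Dbp (rho from -0.78 to -0.76, adjusted permutation p of 0.0024 to 0.012). Within that list the members diverged: Dbp had r = -0.86 with Zbtb16, -0.73 with Tsc22d3 and -0.72 with Errfi1, and r above 0 with 4 of 10, including Sgk1 at 0.44 and Fkbp5 at 0.41. None of the clock genes passed against the immediate early genes, where r ran from -0.26 for Dbp to 0.31 for Per1, and of these genes Dbp was furthest from 0 with Ier2 (-0.69), Fos (-0.41) and Egr1 (-0.33). Of the technical measures, library size passed with Nr1d2 (r = -0.49, rho = -0.61, adjusted permutation p of 0.045 and 0.025), at -0.29 and -0.17 within the library sets. The share of read pairs that fell in no gene passed with Per3 (r = 0.64, rho = 0.61, adjusted permutation p of 0.012 and 0.025), at -0.41 among Con females and 0.85 to 0.94 in the other groups.

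**Figure D4:**
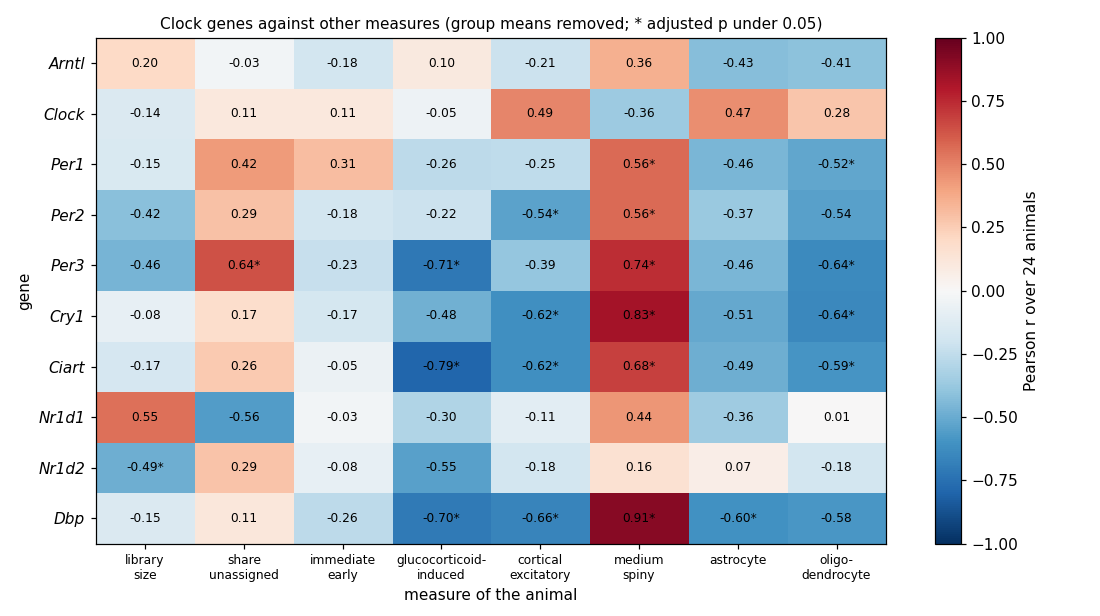
Pearson r of each clock gene (rows) with 8 measures of the animal (columns) over 24 animals with group means removed; stars mark an adjusted permutation p under 0.05 over 80 relations. The medium spiny column holds 6 starred positive values up to 0.91, and the immediate early column holds none.

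Once the trend on the medium spiny neuron score was removed, an alternative chosen after seeing the data, 2 pairs passed and the median r over the 45 pairs was 0.042. Dbp with Ciart kept r = 0.69 and Nr1d2 with Clock had r = 0.69. Before that removal, Nr1d2 with Clock had r = -0.59 within libraries 1 to 12 and 0.68 within libraries 13 to 24. Both of these genes were also lower in libraries 13 to 24 within every group. By contrast, Dbp with Cry1 went from 0.76 to 0.023 and Dbp with Per3 from 0.72 to 0.16. Dbp with Arntl went from 0.16 to -0.45 (adjusted permutation p = 0.20) and Per3 with Arntl from -0.045 to -0.49 (adjusted p = 0.074), neither of which passed. Time of collection, cell makeup and RNA per cell cannot be told apart with these samples.

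**Figure D5:**
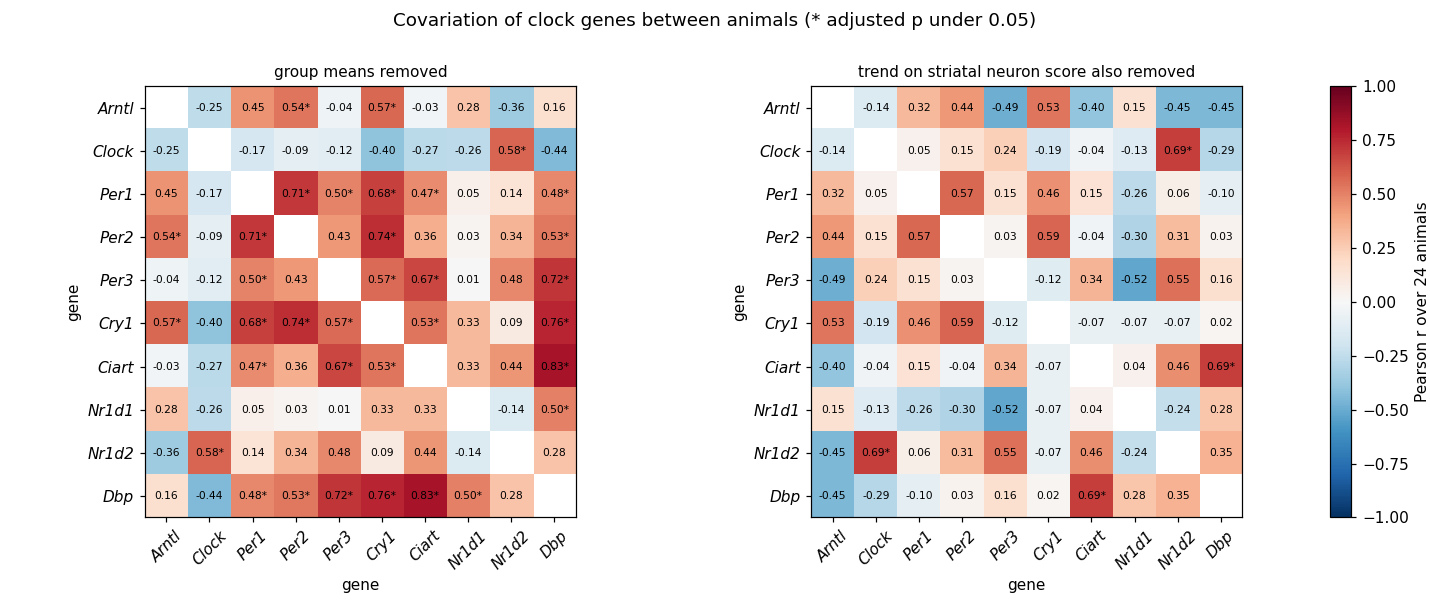
Pearson r between the 10 clock genes over 24 animals with group means removed (left) and with the trend on the medium spiny neuron score also removed (right); stars mark an adjusted permutation p under 0.05 over 45 pairs. The left panel holds 17 starred pairs, all above 0, and the right panel holds 2, Dbp with Ciart and Nr1d2 with Clock. Before removal of the trend, Nr1d2 with Clock had r of opposite sign in the library sets.

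Over the 15934 genes with a mean of at least 1 CPM, the median r with Dbp was -0.026 and 529 genes had r of 0.8 or more. The 10 genes outside the clock lists with the highest r over the 24 animals were Tomm20 (r = 0.95), Penk, Zadh2, Wnt2, Zswim5, Gclc, Gpr83, Itgb1bp1, Dlx6 and Adora2a (0.93). Penk (proenkephalin) and Adora2a (an adenosine receptor) are among the 9 medium spiny neuron markers set against Dbp above. All 9 had r above 0 with Dbp, including Drd1 at 0.92 and Drd2 at 0.87. The 5 lowest were Vps13c (r = -0.93), Miat, B930095G15Rik, Lrp8 and Arhgef28 (-0.92). Among clock genes, the nearest to Dbp was Tef (r = 0.94, sixth place of all counting Dbp as the first), a transcription factor of the same PAR bZIP family, and Hlf, the other member, had r = 0.74. Bhlhe41 had r = 0.79. Nfil3, which competes with Dbp for D-boxes, was the clock gene lowest against Dbp (r = -0.88). It stood at place 43 counted from the lowest of the 15934 genes. The kinase Csnk1e, which phosphorylates Period proteins, had -0.85 (place 159 from the lowest). Rorb, an activator at the sites bound by Nr1d1, had -0.81 (place 389 from the lowest).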

How the data were processed

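Total RNA from bilateral NAc punches was depleted of ribosomal RNA and sequenced as paired reads. Per the study's methods and the submitters' processing notes, the authors trimmed reads, aligned them with STAR 2.6.1b to mm10 (GENCODE M15) and deposited STAR's counts per gene, unnormalized; the sense-strand counts were used, whose totals were at least 18.1 times the antisense totals. Sense totals were 39923666 to 70575745 per animal, so counting error is small beside the spread between animals for every clock gene.

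From the deposited counts, edgeR 4.0.16 (R 4.3.3) computed TMM-scaled CPM and quasi-likelihood tests (robust) on genes kept by filterByExpr (minimum count 10), within the groups compared, with Benjamini-Hochberg adjustment over all genes tested and a threshold of 0.10, as in the study. The interaction and the library set were fitted on all 24 animals. The study's term for estrous stage was left out, since some males carry a stage in the labels and some females carry none. The part of estrous stage in the spread between females was not tested. RPKM used exon lengths of GENCODE M21, in which 52489 of the 52636 identifiers were found. Correlations used log2 CPM (prior count 2) less the group mean, with Pearson's r and Spearman's rho, 100000 two-sided permutations within groups and adjusted p under 0.05. The model code was tested on simulated data. DESeq2 1.42.0 and the other settings given in the closing section were alternatives.

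The members and all gene lists were chosen with earlier results of these data known. The text names every member, further clock genes and outputs that passed in a comparison or stand by Dbp (except 1 that passed in females, which is counted but not reported here), the 10 genes with the highest and the 5 with the lowest r to Dbp outside the lists, and at most 3 examples each of the immediate early and glucocorticoid-induced lists; Sgk1, Fkbp5, Arc, Tef, Hlf, Nfil3, Csnk1e and Rorb were named after their values were seen. Microglia and endothelial markers, of which all 5 each were detected, did not pass in any comparison. Same-numbered animals of 2 groups were not pairs: their deviations had r from -0.37 to 0.40.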

Additional observations from a re-analysis of the deposited data

Results flagged for a closer look

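Cry1, the Cryptochrome repressor, stood at 24.5 CPM in MSUS male 6, far below the other 5 MSUS males: the gap to the nearest of them was 0.766 of the range of the group, above the critical value of 0.625 for 6 animals. This was the 1 sample set apart in 40 checks of a clock gene within a group, and chance alone sets about 1 in 20 apart. MSUS male 6 also had the lowest medium spiny neuron score of its group and the highest cortical score. Their part in the Cry1 value was not tested.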

How the results depend on the processing

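In MSUS against Con females, 1 clock gene passed. DESeq2 gave 2 (Per2 and Per3), as did a minimum of 10 counts in every animal, and the medium spiny neuron score as a covariate, added after seeing the data, gave 3. No filter on low counts, the share of read pairs that fell in no gene as a covariate, all 24 animals in 1 fit and a threshold of 0.05 each gave 0. Counts without strand and the cortical score as a covariate gave 1, but it was Nr1d1. Leaving out 1 animal at a time gave 0 to 2. Between Con females and Con males, where Per1 passed, both of those covariates (unassigned share and cortical score), all 24 animals in 1 fit and a threshold of 0.05 gave 0, the medium spiny neuron score gave 2 (Per1 and Per3), and leaving out 1 animal gave 0 to 1. Between library sets, where 2 passed, DESeq2's size factors in edgeR and counts without strand gave 1 (Nr1d2), no filter, the unassigned share and a threshold of 0.05 gave 0, and leaving out 1 animal gave 0 to 2. The other 3 comparisons gave 0 under every alternative. A block on the replicate number gave 1 in MSUS against Con females (Per2), 0 between Con females and Con males and 0 in the other 3 comparisons that it could enter. It took the calls over all genes in MSUS against Con females from 5156 to 3800, and between 0 and 1 of 6 animals correlated best with their own number. Over all genes, the 5156 calls in females became 0 with the unassigned share, 1693 with the cortical score, 3126 at 0.05, 3102 without MSUS female 3 and 3358 without MSUS female 2. They rose to 6685 with the medium spiny neuron score, 5786 by DESeq2 and 5737 without MSUS female 1. Counts without strand gave 6823 calls among 23506 genes tested, and 10 counts in every animal gave 4969 among 18697. The 544 between Con animals became 1511 by DESeq2, 1362 without strand, 1633 with the medium spiny neuron score, 338 with no filter, 62 with all 24 animals, 38 with the cortical score, 32 at 0.05, 12 with the block, 11 with the unassigned share, 20 to 284 without Con female 1, 2, 4 or 5 or Con male 1, 3, 4 or 6, and 1395 without Con male 5. The 28 between MSUS animals became 167 by DESeq2, 71 with the library set as a covariate, 17 with the medium spiny neuron score, 16 with 10 counts in every animal, 14 to 18 without MSUS female 2 or 3 or MSUS male 3, 4 or 5, and 64 without MSUS male 1. The 503 between library sets became 1261 by DESeq2, 1247 with the medium spiny neuron score, 835 with the cortical score, 183 with the unassigned share, 154 at 0.05, 142 with no filter, 108 to 335 without Con female 1, 2 or 3, MSUS female 1 or 4, Con male 1, 2 or 3 or MSUS male 1, 2, 4 or 5, 1092 without Con male 5 and 1172 without MSUS male 6. The interaction had 0, but 467 by DESeq2, 3031 without MSUS male 1, 1 without Con female 5 and 0 without any other animal. Of 17 correlated pairs, counts without strand left 11, Spearman's rho 2, removal of library set means 9, removal of the medium spiny neuron trend 2 and leaving out Con female 3, Con male 5 and MSUS male 6 together 3. DESeq2's size factors gave 17, removal of the trend on the unassigned share 18, no removal of group means 12, and leaving out 1 animal 7 to 17. Dbp passed with 5 of 8 measures when adjusted over these 8 alone, in all settings tried but those that left out 1 animal, which gave 3 to 5. The cause of these changes was not tested. The lowest count of a clock gene in any animal was 282, for Ciart.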
